A study of Mus musculus with 8 samples.

Results

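The cells described here were recovered from the spleen on day 7 after transfer of CD8 T cells. Each held at least 1 UMI (a counted RNA molecule) of at least 2 of 5 genes: Cx3cr1, S1pr5, Gzma, Gzmk and Zeb2. The rule required no T cell marker. There were 1294 such cells, called members below, among 8725 spleen cells and 16404 cells of the whole series that passed the same filters. The comparison cells were the 5545 spleen cells with no UMI of any of the 5 genes. The other 1886 spleen cells had exactly 1 of the genes and entered no class test.

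Activated CD8 T cells of 3 donor mice had been cultured with bone marrow stromal cells (BMSCs) whose mitochondria carried the red fluorescent protein dsRed. MitoPositive cells were dsRed+ at the sort that followed and MitoNegative cells were dsRed-, so the day 7 names give the state of the cells before they were injected. Both arms had shared the activation, the coculture and the transfer into B6 mice bearing B16KVP tumors, a derivative of the B16 mouse melanoma line by its name, and were recovered by flow cytometry. Each donor gave 1 MitoPositive and 1 MitoNegative spleen sample and the matching tumor samples, all in 1 library per donor. Per the deposited hashtag list, each arm of a donor had recipients of its own, so an effect of the recipients and of the arm cannot be told apart, whereas spleen and tumor of 1 arm shared recipients. Age and sex of the mice, their own lymphocytes and the antigen receptor of the cells are not given in the sources used here.

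The 5 genes are known from circulating effector CD8 T cells and from natural killer cells. Cx3cr1 encodes the receptor for the chemokine fractalkine, S1pr5 a sphingosine-1-phosphate receptor that lets cells leave tissue into blood, Gzma and Gzmk tryptase-like granzymes of the cytotoxic granule, and Zeb2 a zinc finger repressor that acts with T-bet in terminal effector differentiation. Effector cells of this kind in the mouse usually carry Klrg1 and lose the lymph node homing receptor Ccr7 and the memory factor Tcf7. Cx3cr1 and Zeb2 are also expressed by monocytes and macrophages.

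The arm of each spleen cell was read from a 15-base antibody tag, shown because it alone assigned a cell to its sample. H1 marked MitoPositive and H2 MitoNegative spleen cells, and the sequences are as the deposited feature lists give them.
H1: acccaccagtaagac
H2: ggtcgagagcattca

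Gzma was detected in 83.8% of members, Cx3cr1 in 73.0%, Zeb2 in 66.3%, Gzmk in 40.1% and S1pr5 in 22.6%, so the receptor S1pr5 marked only a minority. The shares over all 8725 spleen cells were 24.1% for Gzma, 15.6% for Cx3cr1, 13.4% for Zeb2, 7.27% for Gzmk and 3.58% for S1pr5. Among 192 spleen barcodes without a UMI of Cd3d, Cd3e or Cd3g, a criterion that T cells of low depth can also meet, the shares were 8.85% for Gzma, 4.69% for Cx3cr1, 29.7% for Zeb2 and 1.56% for S1pr5. Gzmk was found in 0 of those 192 barcodes, which allows a share of up to 1.90% by an exact binomial interval. The median depth was 5403.5 UMIs in members, 6273 in all spleen cells and 1708 in the barcodes without Cd3. These shares describe the rule and were not tested.

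Members by the number of the genes they held were spread out: 586 had the minimum of 2 (45.3%), 389 had 3 (30.1%), 237 had 4 (18.3%) and 82 had all 5 (6.34%). Cx3cr1 and Gzma occurred together in 762 members (58.9%), Gzma and Zeb2 in 683 (52.8%), and Gzma and Gzmk in 459 (35.5%). The commonest member with exactly 2 genes had Cx3cr1 and Gzma (182 cells), followed by Gzma with Gzmk, Gzma with Zeb2 (111) and Cx3cr1 with Zeb2 (108). Just outside the rule lay 1016 cells with Gzma alone, 421 with Cx3cr1 alone, 314 with Zeb2 alone, 115 with Gzmk alone and 20 with S1pr5 alone.

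Expression levels are given as CPM, the UMIs of a gene per 1000000 UMIs summed over the cells of 1 class in 1 sample. Gzma stood at 4228, 5056 and 5685 CPM in the MitoPositive members of donors 1, 2 and 3, against 1213, 2268 and 3617 CPM in the MitoNegative members. Cx3cr1 stood at 333, 396 and 600 CPM in MitoPositive members, against 165, 256 and 263 CPM in MitoNegative members. Zeb2 stood at 551, 736 and 1020 CPM in MitoPositive members, against 206, 447 and 290 CPM in MitoNegative members. For these 3 genes every MitoPositive value lay above every MitoNegative one. The same held for 527 of the 8995 genes tested between the arms of the members (5.86%), and the reverse for 547 (6.08%). S1pr5 did not overlap between the arms either, at 50.6, 70.6 and 116 CPM against 38.0, 42.2 and 37.5 CPM. Gzmk did overlap, at 124, 147 and 72.3 CPM in MitoPositive members, against 52.8, 84.5 and 44.4 CPM in MitoNegative members. The 5 genes were 0 in the comparison cells by the rule, and their values in members are a description without a test.

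Members made up 25.9%, 19.5% and 42% of the MitoPositive spleen cells of donors 1, 2 and 3, from 297 of 1148, 449 of 2303 and 21 of 50 cells. They made up 10.1%, 11.3% and 7.35% of the MitoNegative spleen cells, from 346 of 3429, 140 of 1237 and 41 of 558 cells. The share was higher in the MitoPositive sample of all 3 donors and the arms did not overlap, although the value of 42% had a 95% exact binomial interval of 28.2% to 56.8%. The arms averaged 29.1 ± 11.6% and 9.59 ± 2.03% (SD, n = 3 each), a difference of 19.5 percentage points with a two-sided exact permutation p of 0.1, the smallest that 3 against 3 samples allow. With each cell thinned to 3000 UMIs, the means were 23.6 ± 10.6% and 6.02 ± 1.77%. Cells with fewer UMIs were left out there, so depth was made equal only among the cells kept. That kept 358 of 449 members of MitoPositive donor 2 and 41 of 41 of MitoNegative donor 3. Without the 50-cell MitoPositive sample of donor 3, a choice made after seeing the data, the MitoPositive mean was 22.7% against 9.59%, and the difference fell to 13.1 points. The 5 genes were already known to differ between the arms from an earlier analysis of these data, so the share is no independent evidence.

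In the tumor, 633 of 2069 cells met the same rule. The mean share over the 6 pairs of donor and arm was 19.4 ± 13% in the spleen and 27.0 ± 7.28% in the tumor (SD, n = 6 each; difference -7.64 points, exact sign-flip p = 0.125, lower in spleen in 4 of 6 pairs). The direction turned when cells were thinned to 3000 UMIs, with 14.8% in spleen and 8.16% in tumor (difference 6.64 points, exact p = 0.0625), and when 3 genes were required, with 12.1% in spleen and 4.80% in tumor (difference 7.31 points, exact p = 0.0625). The gene combinations also differed. The commonest pairs in tumor were Gzma with Zeb2 (313 cells) and Cx3cr1 with Zeb2 (239 cells), while Cx3cr1 with Gzma was found in 144. Zeb2 was detected in 52.5% of all tumor cells, against 13.4% of all spleen cells. Median depth was 15017 UMIs in tumor and 6273 UMIs in spleen cells, and the pairs were counted without thinning. In the tumor 76.9% of the cells that met the rule had the minimum of 2 genes and 1 cell had all 5 (0.158%).

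**Figure D1:**
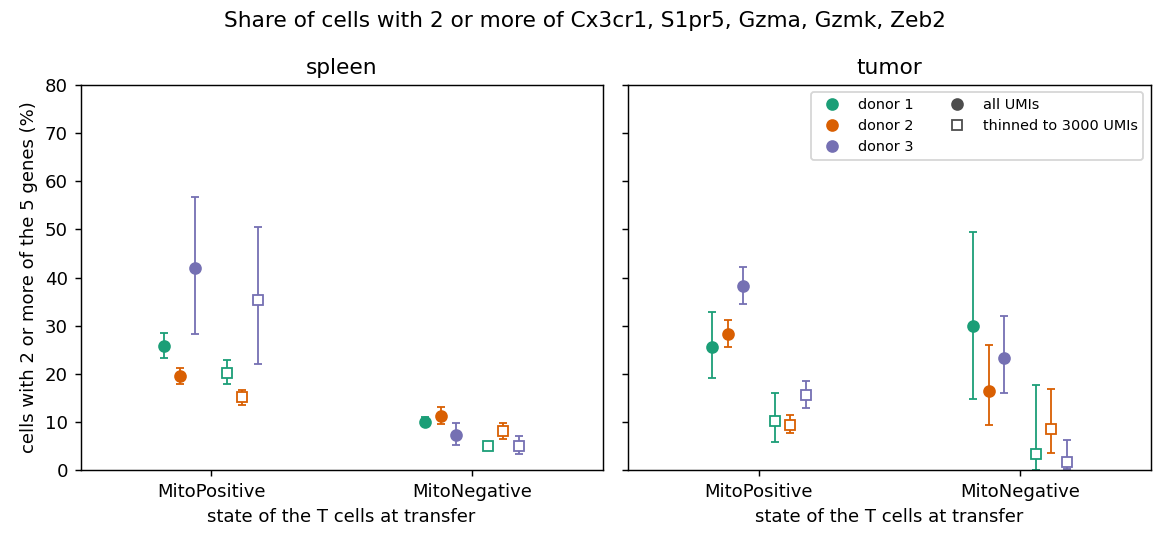
Share of cells with at least 2 of the 5 genes (percent, y axis) for each donor and arm, in spleen (left panel) and tumor (right panel); filled points use all UMIs with 95% exact binomial intervals and open squares use cells thinned to 3000 UMIs. In the spleen the MitoPositive points lie between 19.5% and 42%, above the MitoNegative points at 7.35% to 11.3%, and the thinned tumor shares lie between 1.75% and 15.6%.

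A readout that the rule did not use was the T cell receptor beta chain. Trbv14 was the variable segment with most UMIs among comparison cells of each sample. Trbv14 made up 69.0%, 33.0% and 35.3% of all Trbv UMIs in the MitoPositive members of donors 1, 2 and 3, and 94.3%, 69.4% and 83.3% in the MitoNegative members. In the comparison cells of the same samples the values were 85.2%, 76.7% and 82.4% in the MitoPositive arm and 97.1%, 95.6% and 84.3% in the MitoNegative arm. The share was lower in members in all 6 samples, by the most in MitoPositive donors 2 and 3 and by the least in MitoNegative donor 3. Means were 64.1 ± 25.0% in members and 86.9 ± 7.94% in comparison cells (SD, n = 6 each), a difference of -22.8 points with a two-sided exact sign-flip p of 0.0312, the smallest that 6 pairs allow. The counts behind these values were small in donor 3, with 6 of 17 UMIs in MitoPositive and 20 of 24 in MitoNegative members. When only cells with a Trbv14 UMI and no UMI of another Trbv segment were kept, called Trbv14-only cells, members made up 19.1%, 8.29% and 16.7% of MitoPositive cells, against 9.70%, 9.03% and 5.76% of MitoNegative cells. These shares came from 79 of 414, 45 of 543 and 3 of 18 MitoPositive cells and 167 of 1721, 42 of 465 and 14 of 243 MitoNegative cells. In that subset the arms differed by 6.51 points (exact permutation p = 0.3) with overlap, and donor 2 went the other way. MitoPositive donor 3 had under 10 cells per class there, so gene tests among Trbv14-only cells were run without that sample. The part of the smaller sums in calls lost there was not tested.

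**Figure D2:**
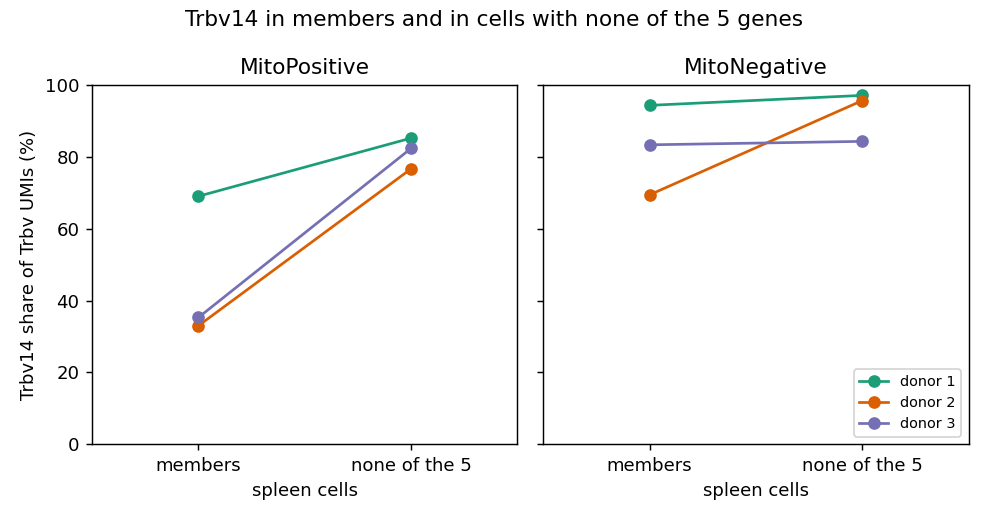
Trbv14 UMIs as a percent of all Trbv UMIs (y axis) in members and in comparison cells of the same spleen sample, 1 line per donor, with a panel per arm. All 6 lines are lower at the members, at 33.0% to 94.3% against 76.7% to 97.1% in comparison cells.

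Across the genome, members and comparison cells of the same sample differed widely. Of 10445 genes tested, 655 (6.27%) were higher and 502 (4.81%) lower in members at an adjusted p under 0.05 (edgeR quasi-likelihood test with the sample as a block, Benjamini-Hochberg over all genes but the 5 of the rule). The 6 member sums lay wholly above the 6 comparison sums for 172 genes (1.65%) and wholly below for 119 (1.14%). With both directions counted, 1157 genes (11.1%) were called, but 606 without donor 1, 360 without donor 2 and 333 among Trbv14-only cells. All 12 sums held at least 20 cells, with 126037 to 3374414 UMIs in members and 139436 to 17233519 in comparison cells. The smallest pair of sums came from MitoPositive donor 3, with 21 members and 20 comparison cells.

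The 12 genes named for their rise in members were, from the largest log2 fold change down, Esm1, Gm4208, Kcnj8, Klrg1, Klre1, Itgax, Itgam, Klrb1c, Nhsl2, Ccl5, Dapk2 and Itga4. Klrg1, an inhibitory lectin-like receptor of terminal effector cells, stood at 29.6, 40.8 and 130 CPM in MitoPositive and 9.06, 31.7 and 34.1 CPM in MitoNegative members of donors 1, 2 and 3. The comparison cells of these samples had 1.76, 1.29 and 0 CPM and 0.716, 0.597 and 3.44 CPM. No member value fell into the range of the comparison cells, and the log2 fold change was 4.33 ± 0.29 (SE; edgeR adjusted p = 2.97e-08). Klre1, a lectin-like receptor of natural killer cells, had 155, 223 and 275 CPM and 40.5, 103 and 246 CPM in members, against 17.9, 20.6 and 7.18 CPM and 6.32, 3.38 and 3.75 CPM, again without overlap (log2 fold change 3.63 ± 0.25, edgeR adjusted p = 3.35e-08). Ccl5, the chemokine RANTES that effector T cells store, ranged from 6667 to 25326 CPM in members and from 1511 to 5193 CPM in comparison cells (log2 fold change 2.22 ± 0.11, edgeR adjusted p = 1.05e-09). Itgax, the integrin chain CD11c, ranged from 33.5 to 72.3 CPM in members and from 1.56 to 14.4 CPM in comparison cells (3.09 ± 0.23 on the log2 scale).

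Itgam, the integrin chain CD11b, followed with 4.85, 25.9 and 43.4 CPM in MitoPositive and 8.76, 13.4 and 54.6 CPM in MitoNegative members, against at most 3.13 CPM in comparison cells (log2 fold change 2.60 ± 0.35). Itga4, the alpha chain of VLA-4, averaged 882 ± 461 CPM in members and 189 ± 93.8 CPM in comparison cells (2.05 ± 0.16 on the log2 scale), and its ranges overlapped because MitoNegative members of donor 1 had 248 CPM. Klrb1c, the receptor NK1.1, overlapped as well, at 1.81 to 123 CPM in members against 0 to 9.02 CPM (2.54 ± 0.33). It was not called among Trbv14-only cells (log2 fold change 1.02, edgeR adjusted p = 0.401). The other 5 were Esm1, the potassium channel gene Kcnj8, the kinase gene Dapk2, Nhsl2 and Gm4208, with log2 fold changes from 2.10 (Dapk2) to 6.86 (Esm1).

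The 12 genes named for their fall were of 1 sign in all 6 samples and had at least 20 CPM in comparison cells. Igfbp4 had the lowest log2 fold change of them, at 1.38 ± 1.4 CPM against 23.2 ± 20.7 CPM (-2.68 ± 0.35), which did not hold among Trbv14-only cells (0.24). Nsg2 had 9.15, 13.6 and 0 CPM in MitoPositive and 31.7, 34.6 and 10.2 CPM in MitoNegative members, against 82.3, 94.1 and 71.8 CPM and 83.0, 101 and 110 CPM in comparison cells. Its classes did not overlap in any sample (-2.12 ± 0.20). Id3, a transcriptional regulator of memory precursors, had 25.8, 22.8 and 28.9 CPM and 82.7, 54.7 and 71.7 CPM in members, against 117, 131 and 101 CPM and 138, 164 and 137 CPM, also without overlap (-1.54 ± 0.18, edgeR adjusted p = 2.76e-05). Ccr7, the receptor that draws T cells into lymph nodes, had 9.15, 9.21 and 0 CPM and 22.3, 21.1 and 6.82 CPM in members, against 56.5, 84.5 and 64.6 CPM and 24.3, 33.2 and 53.5 CPM. The drop was wide in the MitoPositive arm and narrow in MitoNegative donor 1 (-1.61 ± 0.33, edgeR adjusted p = 3.42e-03). Dapl1, Trib2, Izumo1r, Ighm, Egr1, Rflnb, St6gal1 and Il6st made up the rest of the 12 genes named for their fall, with log2 fold changes from -2.26 (Izumo1r) to -1.33 (Il6st). Ighm, an immunoglobulin heavy chain gene, is itself one of the B cell markers, which summed to 57.9 to 311 CPM in members and 155 to 3307 CPM in comparison cells, and their part in its fall was not tested.

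**Figure D3:**
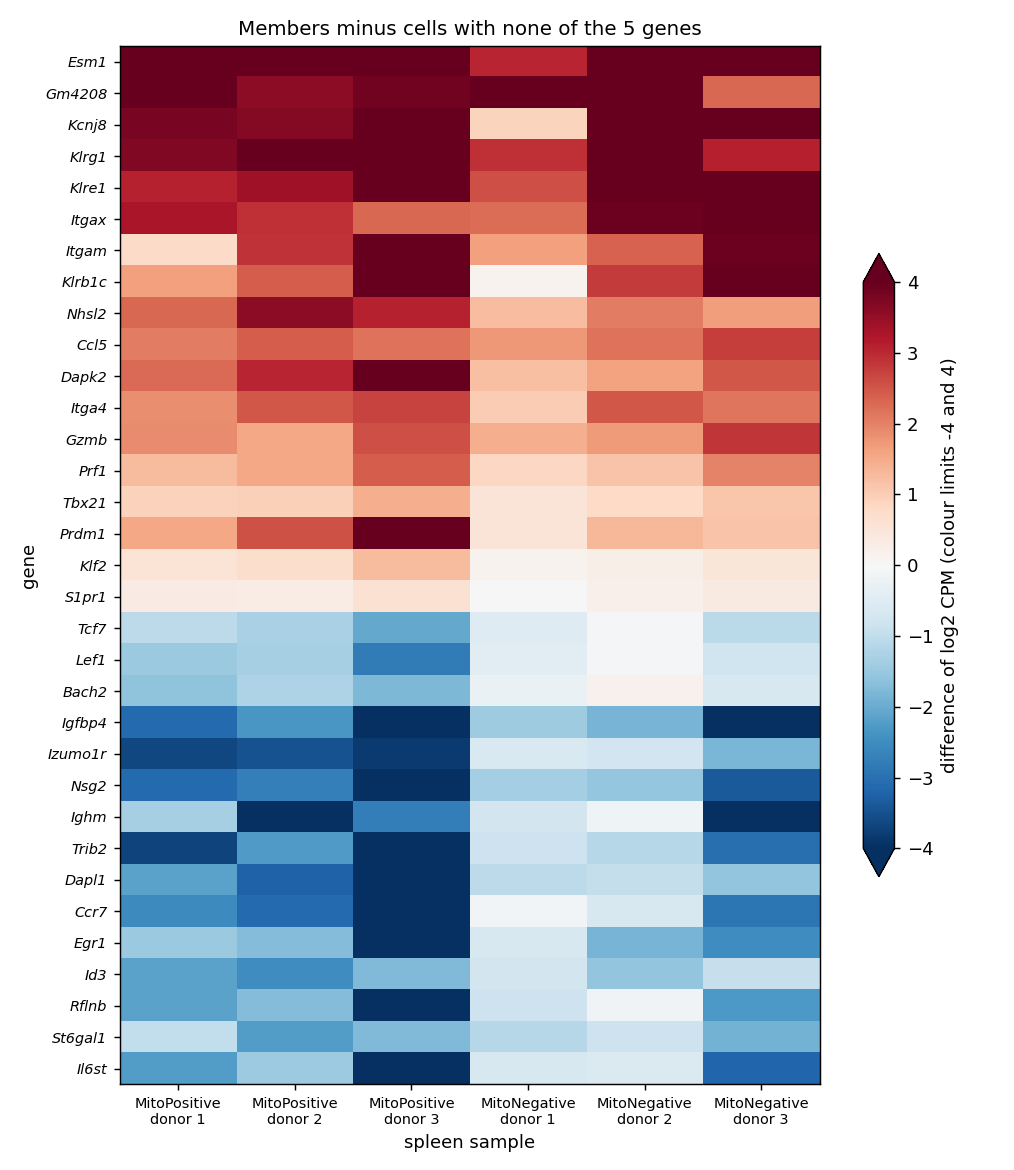
Log2 difference in CPM between members and comparison cells within each of the 6 spleen samples (columns) for the named genes and a selection from the lists (rows), with colours from -4 (blue) to 4 (red). Klrg1, Klre1 and Ccl5 are red in every column, and Nsg2 and Id3 are blue in every column.

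Of the granzyme and perforin list, 8 genes passed the filter on low counts and were tested, and 5 of them were higher in members and none lower, with a median log2 fold change of 0.88 against -0.003 over all genes tested. Gzmb, a granzyme that triggers apoptosis in target cells, had 512, 352 and 391 CPM in MitoPositive and 598, 270 and 345 CPM in MitoNegative members, against 139, 119 and 64.6 CPM and 218, 81.8 and 46.6 CPM in comparison cells. Members were above comparison cells in every sample and the 2 classes did not overlap (1.84 ± 0.13 on the log2 scale, edgeR adjusted p = 7.97e-08). Prf1, the pore-forming perforin, had 60.1 to 116 CPM in members and 14.4 to 33.4 CPM in comparison cells (1.30 ± 0.13). Fasl, the death ligand, rose by 1.61, Gzmm by 1.43 and the granule gene Nkg7 by 0.46 on the log2 scale. The granule genes Srgn (0.07), Ctsw (0.03) and Lamp1 (0.11) were not called.

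Among killer lectin-like and natural killer receptor genes, 14 of 17 were higher in members and none lower, with a median of 1.60. Klrk1, the activating receptor NKG2D, averaged 658 ± 93.6 CPM in members and 243 ± 57.4 CPM in comparison cells without overlap (1.4 ± 0.12, edgeR adjusted p = 1.13e-06). Klrc1 (1.41), Klrc2 (1.4), Klrd1 (0.66), Cd244a (1.57) and the inhibitory Fc receptor gene Fcgr2b (3.28) rose too. Klra8 (5.87) and Klra3 (2.95) rested on low counts, with Klra8 at 0 CPM in 3 of the 6 member sums. The Klra and Klrc genes and Lilrb4a have near-identical copies, so the split of reads among them is uncertain. Of the 14 calls, 13 stood among cells with a Cd3 UMI and under 3 of the 10 myeloid marker genes, and 7 among Trbv14-only cells.

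Genes of migration and adhesion were mostly higher in members, 12 of 18 higher and 2 lower, with a median of 0.45. Klf2, the factor that drives S1pr1, had 974, 922 and 1078 CPM in MitoPositive and 613, 692 and 693 CPM in MitoNegative members, against 661, 566 and 452 CPM and 551, 585 and 498 CPM in comparison cells (0.51 ± 0.10, edgeR adjusted p = 3.46e-03). Members were higher in all 6 samples, while among Trbv14-only cells Klf2 was not called (0.23, edgeR adjusted p = 0.29). S1pr1, the receptor for exit from lymphoid organs, rose by 0.26, S1pr4 by 0.39, the beta-2 integrin gene Itgb2 by 0.66, Itgal by 0.32, Itgb1 by 0.61 and Spn, which encodes CD43, by 0.73. Ccr7 was among the 2 that fell. Ccr2, a receptor for inflammatory chemokines, ranged from 247 to 372 CPM in members and from 83.6 to 167 CPM in comparison cells (1.36 ± 0.14). Cxcr3, a receptor for interferon-induced chemokines, fell by 0.29.

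Effector transcription factor genes were higher in 6 of 13 cases and lower in 1, with a median of 0.39. Tbx21, which encodes T-bet, had 183, 201 and 333 CPM in MitoPositive and 137, 191 and 157 CPM in MitoNegative members, against 95.2, 103 and 122 CPM and 95.7, 109 and 73.2 CPM in comparison cells. The classes did not overlap (0.86 ± 0.09, edgeR adjusted p = 7.82e-06). Prdm1, which encodes Blimp-1, rose by 1.5, Bhlhe40 by 1.36, Runx1 by 0.63, Id2 by 0.58 and Ikzf3 by 0.47, and Ikzf2 fell by 1.24. Stem and memory genes went down: 13 of 19 were lower and 1 higher, with a median of -0.77. Tcf7, which encodes the memory factor TCF-1, had 157, 124 and 94.0 CPM and 139, 212 and 136 CPM in members, against 326, 305 and 388 CPM and 200, 226 and 292 CPM in comparison cells. It overlapped only through MitoNegative donor 2 members and MitoNegative donor 1 comparison cells (-0.85 ± 0.14, edgeR adjusted p = 7.54e-04). Lef1 (-0.94), Bach2 (-0.82), Slamf6 (-0.94), Myb (-1.44), Satb1 (-0.77), Bcl2 (-0.64), Cd27 (-0.57) and Foxo1 (-0.40) fell. Of these, Lef1, Slamf6, Myb and Cd27 were lower in members in all 6 samples. The rest fell in each MitoPositive sample but not in each MitoNegative one. In MitoNegative donors 1, 2 and 3 the log2 differences were -0.11, 0.08 and 0.03 for Satb1 and -0.27, 0.17 and -0.65 for Bach2. They were -0.50, 0.44 and -0.24 for Bcl2 and -0.10, 0.07 and -0.53 for Foxo1. Eomes, a T-box factor of memory and natural killer cells, was the member of that list that rose, at 37.1 ± 19.0 CPM against 16.0 ± 4.55 CPM (1.00 ± 0.18). The cytokine receptor gene Il7r had a log2 fold change of -0.24 and was not called. Of the 14 stem and memory calls, 8 stood among Trbv14-only cells and 11 without donor 2.

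Inhibitory receptor genes did not move together, with 4 of 16 higher, 5 lower and a median of -0.21. Havcr2, which encodes TIM-3, rose by 1.39, Tigit by 1.74 and the ectonucleotidase gene Entpd1 by 1.36, whereas Cd200 fell by 1.71, Btla by 1.27, the exhaustion factor gene Tox by 0.64 and Cd160 by 0.29. Pdcd1, which encodes PD-1, had a log2 fold change of -0.40 and Lag3 of -0.48, and neither was called. Ifng, the gene of interferon gamma, averaged 73.4 ± 14.5 CPM in members and 32.2 ± 17.4 CPM in comparison cells (0.88), and Ccl4 rose by 0.55, while Il2 fell by 1.17 and Tnf by 0.71. The Ccl4 rise did not hold in every sample. Its log2 differences were -0.04, 1.55 and -0.64 in MitoPositive and 0.78, -0.06 and 0.09 in MitoNegative donors 1, 2 and 3. In all, 3 of 12 cytokine genes were higher, Ccl5 among them, and 2 lower. Receptors for interleukin-18 and interleukin-12 were higher (Il18rap 1.41, Il12rb2 0.98), as were Il2ra (0.59) and Il10ra (0.57). Tgfbr3 (-1.60), Il6ra (-1.39) and Il27ra (-0.41) were lower, making 4 higher and 3 lower of 18 cytokine receptor genes.

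Of 30 ribosomal protein genes 27 were lower in members and none higher (median -0.43), and of 13 mitochondrially encoded genes 9 were lower (median -0.31). Without donor 1, 18 of the 27 ribosomal and 0 of the 9 mitochondrial calls stood, and without donor 2 it was 12 and 2. Among Trbv14-only cells 26 and 1 stood, and without the sample block 19 and 4. Nuclear genes of oxidative phosphorylation had 0 higher and 2 lower of 25 (median -0.11), and of 15 glycolysis genes 1 was higher and 1 lower. Of 22 G2/M phase genes 10 were higher and none lower (median 0.64), while none of 22 S phase genes was called (median -0.22). None of those 10 calls stood after thinning to 3000 UMIs (median 0.10), and 3 stood with DESeq2, 3 without the sample block and 3 where 3 genes were required. None stood without cycling cells either (median 0.16), but cycling cells were defined by UMIs of at least 3 of these 22 genes. That loss follows from the definition and is no test of the calls. Among the S100, annexin and galectin group 5 of 18 were higher, with Anxa1 at 1.12, Ahnak at 1.08, Lgals3 at 0.75, Lgals1 at 0.48 and S100a10 at 0.39. The neutrophil genes S100a8 (-3.12) and S100a9 (-3.07) were the 2 of that group that fell. Of 14 early response genes 2 were lower and none higher, of 15 interferon response genes 4 were lower and none higher, of 14 survival and death genes 1 was higher and 2 were lower, and of 20 T cell receptor complex and signalling genes 1 was higher and 2 were lower.

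The rule did not require members to be T cells, and their identity was read from the receptor and coreceptor genes. A UMI of Cd3d, Cd3e or Cd3g was present in 87.8% to 100% of members per sample, lowest in MitoNegative donor 3. Cd8a (-0.16), Cd8b1 (0.10), Cd3e (0.03) and Trac (0.11) had log2 fold changes near 0 and were not called. Cd3d, Cd3g and the receptor constant segment Trbc2 were lower in members in all 6 samples. Their within-sample log2 differences ran from -0.60 to -0.08, from -0.32 to -0.07 and from -1.13 to -0.10. Not all of these were called, since the T cell receptor list that holds them gave 2 lower calls. Natural killer cell markers summed to 210, 314 and 340 CPM in MitoPositive and 62.8, 154 and 618 CPM in MitoNegative members, against 18.7 to 44.5 CPM in comparison cells, and all 4 tested markers were higher in members. Ncr1, the marker that defines natural killer cells, was 0 in 4 of the 6 member sums, 5.26 CPM in MitoPositive donor 2 and 136 CPM in MitoNegative donor 3. Myeloid markers summed to 385, 411 and 2228 CPM in MitoPositive and 377, 511 and 628 CPM in MitoNegative members, against 215 to 286 CPM in comparison cells, with 8 of 10 higher. At least 3 of the 10 myeloid genes were found in 9.76% to 21.4% of members and 3.41% to 10% of comparison cells. Of 5 tested B cell markers 2 were lower. The tested gamma delta T cell genes gave 2 higher, Trgv2 (1.89) and Tcrg-C2 (1.63), and 1 lower, Trdc (-1.32), of 6. Of the CD4 T cell genes the 1 tested was not called, and the same held for the 2 tested erythroid genes. Melanoma markers reached 407 CPM in MitoPositive donor 2 members and at most 8.71 CPM in comparison cells, and none passed the filter on low counts. When only cells with a Cd3 UMI and under 3 of the 10 myeloid genes were kept, 1081 genes were called between classes. Of the marker calls, 4 of 8 myeloid and 3 of 4 natural killer ones stood there. Among Trbv14-only cells it was 3 of 8 and 1 of 4. The part of these other cells in the class differences was not tested further.

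Median levels are given next by the number of the 5 genes a cell held, from 0 over 1, 2 and 3 to 4 or 5. The median of Klrg1 over samples with at least 10 cells was 0.939, 1.69, 8.16, 32.6 and 74.5 CPM along that order. Tbx21 followed with 93.9, 105, 135, 201 and 239 CPM, and Klf2 with 527, 575, 620, 931 and 1030 CPM. Tcf7 ran the other way in its medians, with 291, 212, 166, 147 and 127 CPM, but MitoNegative donor 2 stayed level at 219, 198, 218, 198 and 217 CPM. Ccr7 had 54.6, 29.2, 18.6, 3.68 and 6.50 CPM, so its lowest median lay at 3 genes. Gzmb was already at 208 CPM in cells with 1 gene, against 94.1 CPM in cells with none. Id3 had dropped to 59.8 CPM at 1 gene, against 127 CPM at none. These are descriptions, since the number of detected genes also depends on depth, and the bins held 6, 5, 5, 5 and 4 samples. MitoPositive donor 3 had too few cells for every bin but that with none of the genes, and MitoNegative donor 3 for the last.

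**Figure D4:**
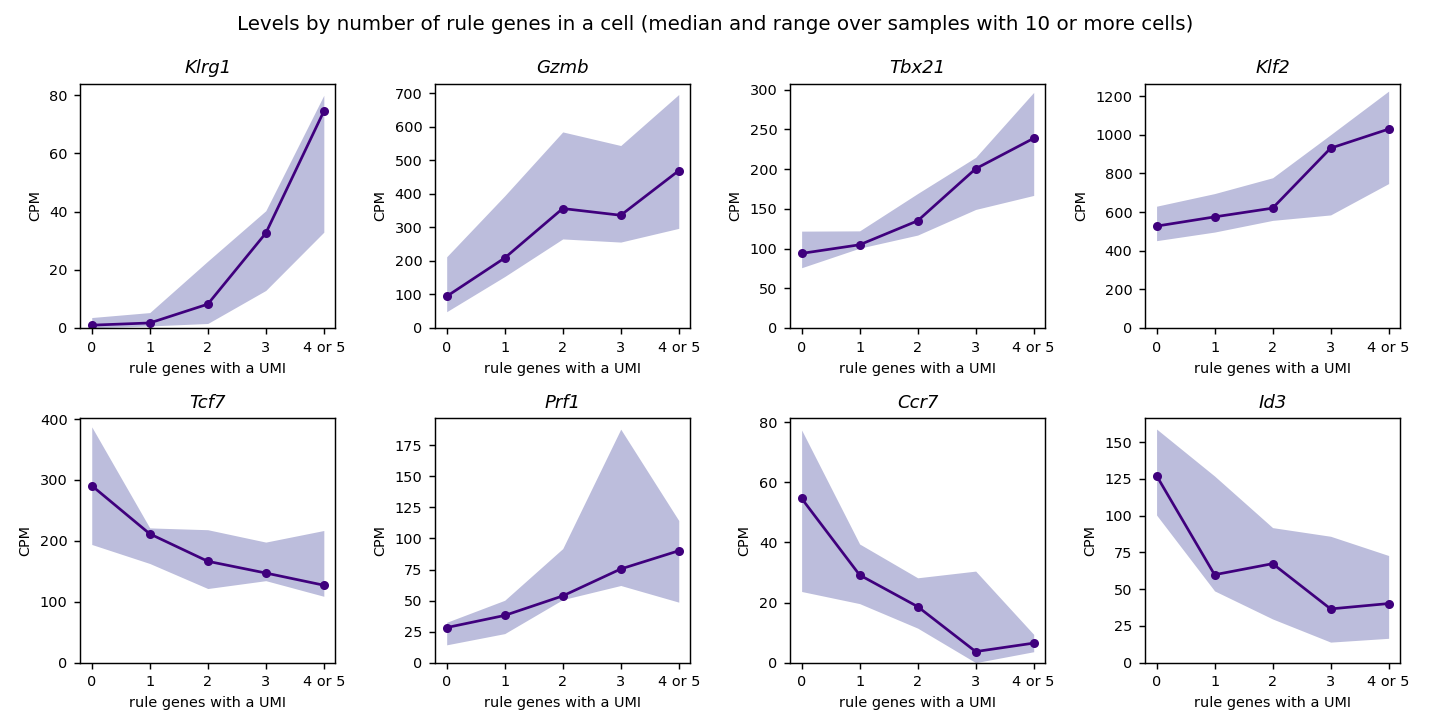
CPM of 8 genes (y axes) in spleen cells grouped by how many of the 5 genes were detected (x axis: 0, 1, 2, 3, and 4 or 5), with the median as a line and the range over samples with at least 10 cells as a band. Klrg1, Tbx21 and Klf2 climb along the axis, while Tcf7 drops to a median of 127 CPM, against 291 CPM at 0 genes.

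Gzma and Gzmk, high in members by the rule, are neighbours on chromosome 13. The tested genes Cdc20b and Esm1 beside them were higher in members. In GRCm38 coordinates of the annotation, Cdc20b, Gzma, Gzmk and Esm1 lie within chr13:113035111-113225908, a span of 190.8 kb. Gzma covers chr13:113093825-113100981 and Gzmk chr13:113171608-113225908, both on the minus strand. Esm1, which encodes the secreted proteoglycan endocan, covers chr13:113209659-113218098 on the plus strand, inside the Gzmk gene of this annotation. By the RefSeq start of Gzmk, used for the sequences below, Esm1 lies before Gzmk and outside it, so the overlap depends on the annotation. Esm1 had 23.7, 27.6 and 79.6 CPM in MitoPositive and 3.93, 20.2 and 10.2 CPM in MitoNegative members, against 0.293, 0.286 and 0 CPM and 0 CPM in all 3 samples among comparison cells. Cdc20b, a relative of the cell cycle gene Cdc20 whose gene ends 2630 bases from Gzma, averaged 13.6 CPM in members and 0.0886 CPM in comparison cells (5.71 ± 0.60 on the log2 scale). Cdc20b was named for its position and not by the rule for named genes. How the counting treated strand is not given in the sources used here. Where Gzmk is taken to span Esm1, reads of these genes may not be separable, and the Esm1 difference is then not independent of the rule. Of 25 tested genes within 250 kb of any of the 5 genes, 6 were higher and 2 lower. Over all 10445 genes tested, 6.27% were higher and 4.81% lower. The 6 include Cdc20b and Esm1, and whether reads of Gzma or Gzmk entered their counts was not tested. Besides Cdc20b and Esm1 the higher ones lay near S1pr5 on chromosome 9 (Icam1, Pde4a, Atg4d and Cdkn2d), and the lower ones were Fdx2 near S1pr5 and Rpsa near Cx3cr1. Pde4a, at 4.88 CPM in members and 1.28 CPM in comparison cells, and Atg4d were each higher in only 4 of the 6 samples.

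The 250 bases before the RefSeq start of these 4 genes (GRCm38.p6, RefSeq sequence) are shown because the genes lie side by side. Gzma and Gzmk were high in members by the rule, and only Esm1 and Cdc20b were tested. Capitals mark matches to the T-box letters GGTGTG or the RUNX letters TGTGGT, searched on both strands. Gzmk (chr13:113180966-113181215, minus strand) had a T-box match 75 to 70 bases before its start on the same strand. Gzma (chr13:113100982-113101231, minus strand) had a RUNX match 50 to 45 bases before its start on the opposite strand. Esm1 (chr13:113209409-113209658, plus strand) and Cdc20b (chr13:113035129-113035378, plus strand) had neither. Of 32851 promoters of this length, 16.3% held the T-box letters and 14% the RUNX letters, so a match is a description of the sequence and not a site.
Gzma: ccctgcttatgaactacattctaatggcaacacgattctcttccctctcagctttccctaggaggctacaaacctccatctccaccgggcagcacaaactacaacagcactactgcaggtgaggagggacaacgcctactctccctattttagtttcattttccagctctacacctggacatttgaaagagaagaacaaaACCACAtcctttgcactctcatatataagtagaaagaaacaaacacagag
Gzmk: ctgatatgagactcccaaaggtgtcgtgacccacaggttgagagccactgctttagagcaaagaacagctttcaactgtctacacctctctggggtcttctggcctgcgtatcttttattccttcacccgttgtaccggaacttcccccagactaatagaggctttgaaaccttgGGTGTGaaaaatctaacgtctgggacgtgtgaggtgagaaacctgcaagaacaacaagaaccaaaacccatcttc
Esm1: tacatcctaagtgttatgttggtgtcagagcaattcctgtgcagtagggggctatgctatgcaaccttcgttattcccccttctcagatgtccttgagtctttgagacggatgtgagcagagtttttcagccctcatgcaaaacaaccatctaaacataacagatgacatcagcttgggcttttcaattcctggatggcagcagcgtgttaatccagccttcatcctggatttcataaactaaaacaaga
Cdc20b: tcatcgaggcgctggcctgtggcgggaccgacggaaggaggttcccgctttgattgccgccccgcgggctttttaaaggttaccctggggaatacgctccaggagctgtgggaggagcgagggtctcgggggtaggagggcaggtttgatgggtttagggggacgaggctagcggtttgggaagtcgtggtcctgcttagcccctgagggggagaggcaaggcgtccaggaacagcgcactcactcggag

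Between the arms, few genes differed among members. Of 8995 genes tested, 3 (0.0334%) were higher and 9 (0.10%) lower in MitoPositive than in MitoNegative members (edgeR quasi-likelihood test with donor as a block, adjusted p under 0.05), 12 (0.133%) in all, while 750 had an unadjusted p under 0.05. The count depended on single donors: it was 9 without donor 1, 0 without donor 2 (337 at an unadjusted p under 0.05) and 497 without donor 3. The 3 higher genes were Itga4, Klf12 and Ccl5. Itga4 had 1277, 1307 and 1230 CPM in MitoPositive members of donors 1, 2 and 3, against 248, 790 and 440 CPM in MitoNegative members (log2 fold change 1.52 ± 0.24, edgeR adjusted p = 0.0342). Its MitoPositive values lay close together and above all MitoNegative ones. Klf12, a Krüppel-like factor gene, had 115, 107 and 217 CPM against 31.7, 56.7 and 64.8 CPM (1.46 ± 0.22). Ccl5 had 21518, 25326 and 17751 CPM against 6667, 15196 and 10268 CPM (1.06 ± 0.15), again without overlap.

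Among the lower genes, Cd7, an immunoglobulin-family receptor of T and natural killer cells, had 63.5, 65.4 and 109 CPM in MitoPositive members, against 302, 208 and 328 CPM in MitoNegative members (-1.91 ± 0.19, edgeR adjusted p = 3.22e-03). Id3 had 25.8, 22.8 and 28.9 CPM against 82.7, 54.7 and 71.7 CPM (log2 fold change -1.48). Hells, a chromatin remodeller of the S phase list, had 33.4, 26.3 and 21.7 CPM against 116, 71.1 and 40.9 CPM (-1.60). In all 3 genes every MitoPositive value lay below every MitoNegative one. The others were Gm43434 (-3.64), Hrh4 (-3.31), Gpr55 (-2.86), Gm43647 (-2.31), Ifi27l2a (-1.14) and the receptor constant segment Trbc2 (-0.70). Gzmb had a log2 fold change of 0.09, Klrg1 of 1.18 (edgeR adjusted p = 0.231) and Tcf7 of -0.34 among members, and none of the 3 was called.

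Cell cycle genes lay lower in MitoPositive members without passing gene by gene. All 20 tested S phase genes had negative values with a median log2 fold change of -1.41, against -0.02 over all genes tested, and Hells was the 1 called. All 22 G2/M genes were negative with a median of -1.16, and none was called. The summed S phase level was 621, 646 and 760 CPM in MitoPositive members, against 2339, 1069 and 710 CPM in MitoNegative members, so donor 3 did not follow. The summed G2/M level was 1492, 1555 and 6322 CPM against 5772, 2633 and 3992 CPM, again with donor 3 the other way. Cycling cells, those with UMIs of at least 3 G2/M genes, made up 7.57% to 23.8% of MitoPositive and 19.5% to 48.6% of MitoNegative members. Members of the MitoPositive arm also had fewer UMIs, with median depths of 5413, 3944 and 5377 against 7542.5, 5907.5 and 6588. When these cycling cells were left out, 43 genes were called and the G2/M median was 0.16. The G2/M genes themselves defined the cells left out, so that median is no test of the arm effect on them.

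In the comparison cells the same contrast called 672 genes (6.40%) higher and 1029 (9.80%) lower of 10501. All 22 S phase and all 22 G2/M genes were lower there, with medians of -1.51 and -2.29, and 10 of 20 stem and memory genes were higher and 1 lower (median 0.69). The difference between the 2 arm effects was tested directly. Of 10445 genes, 34 (0.326%) had a higher and 52 (0.498%) a lower arm effect in members than in comparison cells (edgeR quasi-likelihood test of the product of class and arm, sample as a block), 86 (0.823%) in all. The count was 0 without the sample block (429 at an unadjusted p under 0.05), 31 with DESeq2, and 40, 34 and 120 without donors 1, 2 and 3. On simulated counts this fit made 20 false calls among 156, which is more than the threshold of 0.05 allows for. The arm effect fits also exceeded it, with 12 among 156 in members and 12 among 193 in comparison cells. The class fit made 10 among 196.

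Of 19 tested stem and memory genes, 11 had a lower arm effect in members and none a higher one, with a median of -1.06 against -0.006 over all genes. Satb1, a chromatin organizer of T cells, had 142, 167 and 57.9 CPM in MitoPositive and 93.9, 133 and 232 CPM in MitoNegative members. In comparison cells it had 369, 469 and 467 CPM in the MitoPositive and 101, 126 and 227 CPM in the MitoNegative arm. The arms were thus separate in comparison cells and overlapped in members, with log2 arm effects of 1.63 and 0.07 (difference -1.52 ± 0.18, edgeR adjusted p = 1.14e-05). For Ccr7 the arm effect was -1.29 in members and 1.17 in comparison cells (difference -2.48 ± 0.38, edgeR adjusted p = 3.64e-04). Bach2 had 0.19 and 1.47 (difference -1.24). Foxp1 (-1.36), Lef1 (-1.09), Bcl2 (-1.06), Dapl1 (-1.67), Id3 (-1.31), Tcf7 (-0.78) and Slamf6 (-0.76) were also among the 11. Of these 11 calls, 10 stood without the MitoPositive sample of donor 3, 8 after thinning, 7 without cycling cells, 6 among Trbv14-only cells, 6 with DESeq2 and 0 without the sample block.

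In the other direction, Lgals3, which encodes galectin-3, had a difference of 1.44 ± 0.17, S100a4 of 0.93, Ahnak of 0.76, Itgb1 of 0.81 and Id2 of 0.68, each called. Xcl1, a chemokine gene of memory CD8 T cells, had a difference of -2.57 and the membrane glycoprotein gene Cd200 of -2.94.

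**Figure D5:**
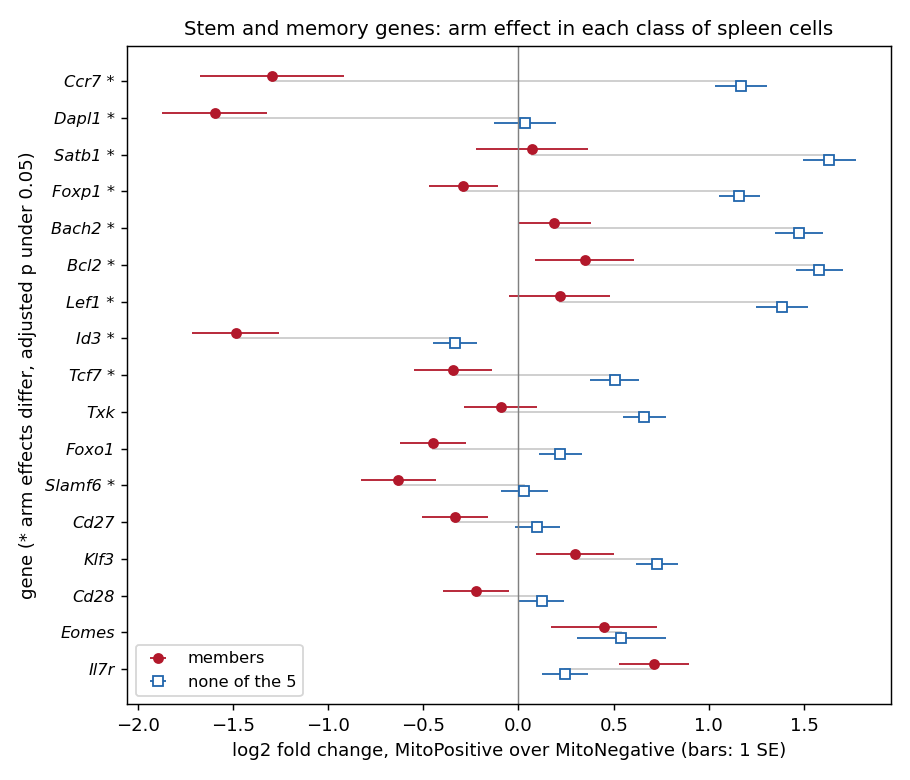
Arm effect (log2 fold change, MitoPositive over MitoNegative, x axis, with standard errors) of stem and memory genes in members (filled red) and comparison cells (open blue); an asterisk marks an arm effect that differed between the classes at an adjusted p under 0.05. Satb1 stands at 0.07 in members and 1.63 in comparison cells, and Ccr7 at -1.29 and 1.17.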

How the data were processed

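Single-cell 3' RNA libraries and antibody hashtags were read from UMI count matrices deposited by the authors, which are raw counts of 32285 genes and the hashtags per barcode. Reads were processed with Cell Ranger 7.0.0, with mm10 (GRCm38) as the build and Seurat 4.0.5 also listed, per the submitters' processing notes. Barcodes with at least 500 genes, under 15% mitochondrially encoded UMIs, and a top hashtag of 10 or more UMIs that exceeded the next one 3 times or more were kept, which left 16404 cells of 18092 barcodes in 4 libraries. The hashtag ratio is meant to remove doublets between samples, and how many remained was not tested. No caller was run for doublets within a sample. Libraries shared 1 to 6 cell barcodes pairwise and 0 among members. The members, gene lists, named genes and tests were chosen with earlier results of these data known.

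UMIs were summed per sample and class, with at least 10 cells per sum. edgeR 4.0.16 in R 4.3.3 tested them (filterByExpr, TMM, quasi-likelihood F test, Benjamini-Hochberg, threshold 0.05), and standard errors were derived from the F statistic. DESeq2 1.42.0 and HTODemux of Seurat 5.3.0 (positive quantile 0.99) served as alternatives, beside other filters, 3 required genes, thinning to 3000 UMIs, only cells with a Cd3 UMI and under 3 of 10 myeloid marker genes, only cells with a Trbv14 UMI and no other Trbv UMI (Trbv14-only cells), no cycling cells, no block, and leaving out each donor. With HTODemux, MitoNegative members of donors 1 and 2 numbered 269 and 80, against 346 and 140 by the hashtag ratio. MitoNegative comparison cells of these donors numbered 2110 and 749, against 2353 and 844. The part of doublets between samples in this was not tested. Thinning left out the cells with fewer than 3000 UMIs. Where nothing says otherwise, n counts hashtagged samples of 3 donors. Binomial intervals are 95% Clopper-Pearson intervals and cover counting error only. Per-sample log2 differences used a prior count of 2.

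The named genes of the class comparison were the 12 with the largest positive and the 12 with the largest negative log2 fold change among those called, of 1 sign in all 6 samples and with at least 20 CPM in the higher class. For the arm effects they were up to 10 per direction of 1 sign in all 3 donors, for the difference up to 5 per direction, and the genes of the lists were added. Donor numbers pair the arms because the deposited hashtag list gives 1 donor mouse to both. Deviations from the arm means correlated at -0.063, 0.115 and 0.010 across genes within donors 1, 2 and 3 among members and at 0.038, -0.051 and -0.018 among comparison cells. On simulated counts with 200 changed genes, 89% of 2-fold and 97% of 4-fold changes were recovered for the class difference (10551 genes), 53% and 91% for the arm effect in members (9099 genes), 87% and 94% in comparison cells (10583 genes), and 56% and 80% for the difference (10518 genes). Results of some genes of the lists are not reported here, and the list counts include them.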

Additional observations from a re-analysis of the deposited data

Results flagged for a closer look

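Among 26 sets of 6 within-sample log2 differences, 4 held a sample that stood far from the other 5 by Dixon's criterion, and chance gives such a sample in about 1 of 20 sets. All 4 concerned the MitoPositive sample of donor 3, whose sums held 21 members and 20 comparison cells, so that 1 class could be at 0 CPM. Members minus comparison cells, that sample had 6.57 for Dapk2 against 1.21 to 3.05 in the other samples. It had -7.07 for Nsg2 against -3.35 to -1.37, -7.55 for Egr1 against -2.49 to -0.64, and -6.34 for Rflnb against -2.29 to -0.15.

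The arm effect differed between members and comparison cells most for the following genes, by the test of the difference itself (edgeR adjusted p in each case, without the sample block no gene was called). The metallothionein genes Mt2 (6.62 ± 1.22, adjusted p = 0.00338) and Mt1 (4.73 ± 0.56, adjusted p = 1.14e-05) were higher. Mt1 had 16.7, 130 and 7.23 CPM in MitoPositive and 7.55, 13.4 and 6.82 CPM in MitoNegative members, against 3.81, 5.01 and 0 CPM and 20.2, 5.97 and 5.63 CPM in comparison cells. Its level was thus high in 1 sample, the MitoPositive members of donor 2, which also had 96.9 CPM of the haemoglobin gene Hbb-bt and 407 CPM of melanoma markers, whose part in the result was not tested. Hbb-bt had a difference of 3.65 ± 0.82 (adjusted p = 0.0229), Selenom of 2.73 ± 0.54 (adjusted p = 0.00853) and S100a9 of 3.87 ± 0.94 (adjusted p = 0.0434). Lower were the immunoglobulin gene Igkc (-5.23 ± 1.14, adjusted p = 0.0176), Klra5 (-4.51 ± 1.08, adjusted p = 0.0416), Klra3 (-3.35 ± 0.82, adjusted p = 0.0435), Gm43434 (-3.48 ± 0.56, adjusted p = 7.28e-04) and 4930417O13Rik (-3.68 ± 0.91, adjusted p = 0.0490).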

How the results depend on the processing

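The share of members by arm kept its direction under every alternative, with differences from 6.51 points among Trbv14-only cells to 25.2 points without 1 donor (12 to 25.2 over the 3 donors). Spleen against tumor reversed with 3 genes (7.31) and after thinning (6.64), and passed the threshold among Trbv14-only cells (-15.9) and without cycling cells (-8.54). The Trbv14 difference between classes ranged from -29.5 to -16.7 points without 1 donor and was -18.0 without the MitoPositive sample of donor 3, where fewer pairs do not allow p under 0.05. The number of genes called between classes was 333 among Trbv14-only cells and 360 to 1007 without 1 donor, and 1180 without the MitoPositive sample of donor 3.

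The donor block pairs the arms of a donor. Without it, 5 genes were called between the arms in members, 716 in comparison cells and 0 for the difference, and 775 without the sample block between classes. The count for members was 285 with no count filter, 225 with both classes in 1 fit, 3 with HTODemux, 0 with 3 genes (496 at an unadjusted p under 0.05 in edgeR, and 13 with DESeq2 under the original rule), 5 after thinning, 50 among cells with a Cd3 UMI and under 3 myeloid genes, 127 among Trbv14-only cells, 43 without cycling cells and 0 to 497 without 1 donor. That for comparison cells was 675 with DESeq2, 834 without cycling cells and 380 to 1833 without 1 donor. That for the difference was 31 with DESeq2, 206 with no count filter, 49 with HTODemux, 29 with 3 genes, 49 among Trbv14-only cells and 34 to 120 without 1 donor. Single genes that turned were Igfbp4 between classes among Trbv14-only cells (0.24), Hist1h2ap between arms in comparison cells without cycling cells (0.0345), and for the difference S100a9 (-2.09 to 6.89 without 1 donor, lowest without donor 2, and -1.21 with 3 genes) and Igkc (-6.70 to 2.65 without 1 donor, highest without donor 2). The cause was not tested in any of these. The alternative without the MitoPositive sample of donor 3 was added after seeing the data. Depth limits the sums of donor 3, the smallest of which held 126037 UMIs in members.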
